A study of Mus musculus with 9 samples.

Results

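Aged mouse lens capsule from animals given epigallocatechin gallate (EGCG), the most abundant catechin of green tea, was compared with aged control capsule by RNA sequencing. The sample titles place the libraries in groups, and the comparison takes 6 of the 9 libraries of the series, 3 aged EGCG and 3 aged control. The other 3 libraries are young control capsule, whose levels stand beside the aged ones as a reference. The strain, sex and ages of the mice, and how much EGCG they got, by what route and for how long, are not stated in the labels. Whether replicate libraries stand for different mice is likewise not stated, so p-values reflect only how far these libraries differ, and that spread may be technical. The series title names a delay of age-related cataract and the RASSF2/AKT pathway, and the comparison asks which transcripts differed with EGCG in old tissue.

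The anterior lens capsule is a thick basement membrane of type IV collagen, laminin, nidogen and perlecan, secreted by the single layer of epithelial cells on its inner face. Those cells have no blood supply, take glucose and osmolytes from the aqueous humour, and at the lens equator turn into fibre cells filled with crystallins. Scarring of the epithelium, with smooth muscle actin and fibrillar matrix, is known from some forms of cataract.

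Library totals ran from 13184169 to 16528179 counts. Levels are given as CPM, counts scaled to a common library size with TMM, a factor computed from the bulk of genes, and 3 counts correspond to 0.183 to 0.232 CPM. Lens genes marked the tissue: 17 tested crystallin genes took 28.2% to 33.3% of the counts of the aged libraries, and the epithelial transcription factors Pax6 and Foxe3 were at 122 to 166 and 143 to 203 CPM in them. Retinal genes were present as well. The 50 tested rod and cone photoreceptor genes took 0.191%, 0.190% and 0.203% of the counts in aged control, 1.43%, 1.43% and 1.42% in EGCG, and 3.88%, 3.85% and 3.86% in young control libraries. The EGCG share was 7.34 times the aged control share, with no overlap (exact two-sided permutation test, p = 0.1, the smallest that 3 against 3 libraries can give). All 3 EGCG libraries carried it, so no library could be left out to remove it. Its part in any other difference reported here was not tested.

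Of 13711 genes with enough counts to test, 3300 (24.1%) were called changed with EGCG, at an adjusted p under 0.05 in edgeR's quasi-likelihood test. Of these, 1894 (13.8%) were higher and 1406 (10.3%) lower, and the median log2 fold change over all genes tested was −0.00. The split depends on the scale. With library size as the only scaling it was 3086 higher and 611 lower, and with the lens fibre genes as the scale 3224 and 548, where the median gene moved to 0.12 and 0.14. A small negative change on the TMM scale, within about that shift, is therefore relative to the median gene. At a change of at least 2-fold, 1016 genes (7.41%) were higher and 114 (0.831%) lower, and in 33.5% of genes the 3 EGCG and 3 aged control libraries did not overlap.

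**Figure D1:**
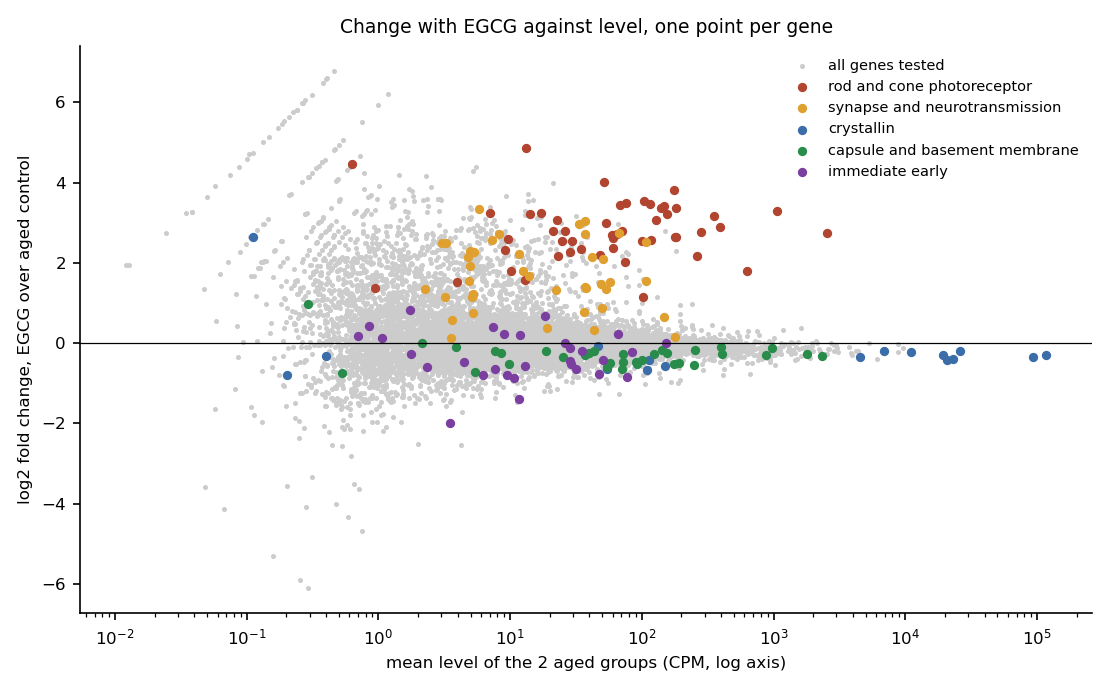
Log2 fold change of EGCG over aged control (vertical axis) against the mean level of both aged groups in CPM (horizontal log axis), 1 point per gene, with 5 gene lists in colour. All 50 photoreceptor genes lie above 1 on the log2 scale, and the crystallins at the right edge lie just below 0.

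Gene lists for lens, eye and stress biology hold 1136 of the tested genes, and each list below is given by its counts and its median log2 fold change, to be read against 13.8% higher, 10.3% lower and a median of −0.00 for all genes. Counts with library size as the only scaling, where 3086 genes were higher and 611 lower, are added where they differ by over 1.5 times or turn.

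**Figure D2:**
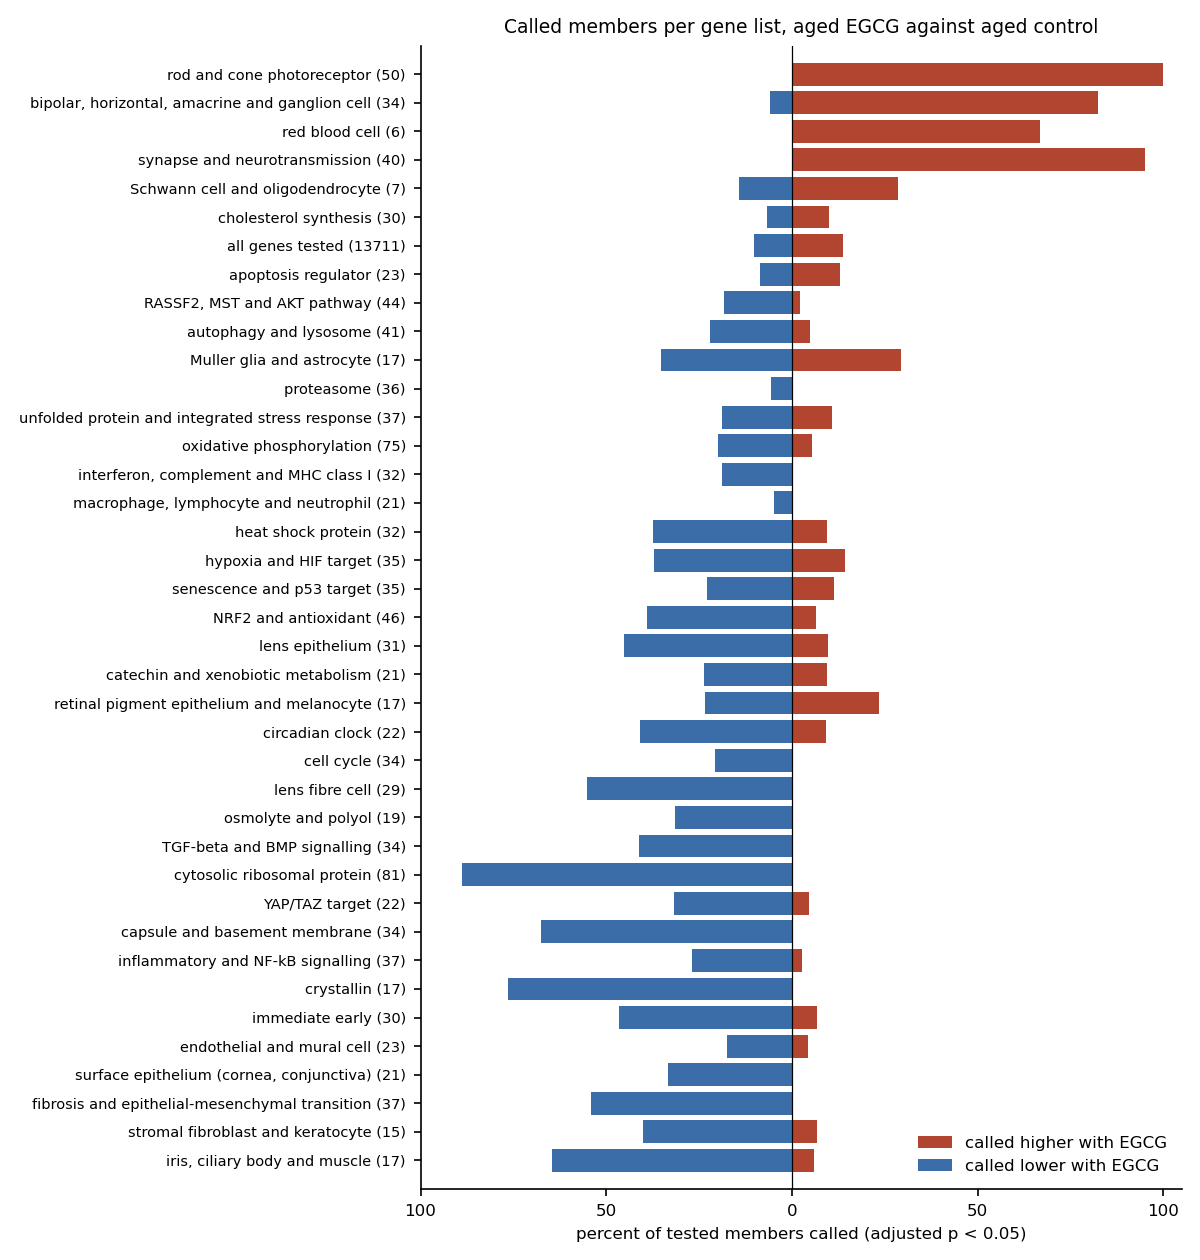
Percent of the tested members of each list called higher (right, red) or lower (left, blue) with EGCG, ordered by the median change, with the number tested in parentheses. The photoreceptor, inner retina, red blood cell and synapse lists stand at the top, in that order. Ribosomal protein, crystallin and capsule lists have most of their members called lower. So do the iris, ciliary body and muscle list (64.7%, against 67.6% for capsule), the lens fibre list (55.2%) and the fibrosis list (54.1%).

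Photoreceptor transcripts made the largest differences. Rods and cones turn light into a voltage change: an activated pigment switches on transducin, transducin activates a phosphodiesterase, and the fall in cyclic GMP closes a cation channel. These cells lie in the retina, behind the lens. All 50 tested members rose with EGCG, with a median log2 fold change of 2.75 and a range of 1.16 (Abca4, a retinoid transporter of disc membranes) to 4.86 (Pde6h). In bulk tissue, fewer cells of a type and less RNA per cell cannot be told apart, here and in every list below.

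Upstream sequences of a pair of these genes are printed because they hold the core letters TAATCC bound by the photoreceptor homeodomain factor CRX. Sequences here and below are the 250 bases before the annotated start, 5′ to 3′ on the gene's strand, from RefSeq on GRCm38.p6, and both strands were searched for each motif, so a capital run may be its reverse complement. Sag lies at chr1:87803430-87803679, plus strand and Gngt1 at chr6:3993758-3994007, plus strand, with the motif in capitals.
Sag: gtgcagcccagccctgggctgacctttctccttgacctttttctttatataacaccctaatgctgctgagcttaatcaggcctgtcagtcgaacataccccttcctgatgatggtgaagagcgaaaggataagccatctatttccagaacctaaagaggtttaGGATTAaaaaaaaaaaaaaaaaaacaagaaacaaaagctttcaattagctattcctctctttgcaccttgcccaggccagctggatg
Gngt1: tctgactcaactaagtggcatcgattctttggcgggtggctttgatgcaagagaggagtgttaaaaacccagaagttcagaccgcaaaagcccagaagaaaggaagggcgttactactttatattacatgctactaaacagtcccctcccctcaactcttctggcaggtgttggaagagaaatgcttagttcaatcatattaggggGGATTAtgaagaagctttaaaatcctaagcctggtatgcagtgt
Of the 38 members with a sequence, 13 (34.2%) held TAATCC or its reverse complement, against 6.38% of all 27025 promoters. All 38 were called higher, so the motif cannot separate changed from unchanged members. A match describes letters and does not show binding.

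Gnat1, the transducin subunit of rods (chromosome 9, 107674474 to 107679712, minus strand), went from 203, 183 and 204 CPM in aged control to 1890, 1957 and 1962 in EGCG libraries, beside 3534 to 3579 in young control. The EGCG libraries lay above every aged control and below every young control library, and the log2 fold change was 3.30 (SE 0.0454, edgeR adjusted p = 3.06e-44). Prph2, which shapes the rim of outer segment discs, rose 7.47-fold, and Pdc, phosducin, which binds transducin subunits, rose 10.7-fold. The inhibitory phosphodiesterase subunit Pde6g rose 14-fold and the catalytic subunit Pde6b 9.29-fold.

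Other rod genes rose as well. Sag, the arrestin that ends the rod light response, was at 79.6, 61.9 and 72.5 against 652, 606 and 651 CPM, and Gngt1, the gamma subunit of transducin, at 19.7, 20.2 and 17.6 against 217, 206 and 212. The groups were far apart in both. Guca1b, a calcium sensor of guanylate cyclase, and Nrl, the factor that sets rod identity, both rose 10.3-fold. Gnb1, a G protein beta subunit used by rods and by many other cells, rose 3.44-fold, from 281 ± 1.3 to 967 ± 15.7 CPM (SD, n = 3 each).

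Cone genes rose as well, and the genes of this paragraph were chosen after their values were seen. Opn1sw, the short-wavelength cone pigment, went from 6.33, 7.21 and 4.41 to 104, 94.1 and 95.6 CPM, a log2 fold change of 4.01. Opn1mw, the medium-wavelength pigment, went from 2.89, 1.21 and 2.01 to 5.27, 5.42 and 6.91 CPM, a change of 1.52 (SE 0.226). The 95% intervals of these changes, 3.82 to 4.21 and 1.06 to 1.98, did not meet. Gnat2, the cone transducin, rose 9.25-fold and Arr3, cone arrestin, 6.07-fold. Relative to the aged control mean, the median photoreceptor gene stood at 2.79, 2.73 and 2.74 on the log2 scale in the 3 EGCG libraries, so the libraries hardly differed among themselves.

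Neurons that receive photoreceptor signals were represented too. Of 34 tested bipolar, horizontal, amacrine and ganglion cell genes, 28 rose and 2 fell, with a median of 2.11. Slc17a7, the vesicular glutamate transporter of photoreceptor and bipolar synapses, was at 35.4, 34.9 and 42.4 CPM in aged control and 265, 269 and 250 in EGCG libraries. Nefl, a neurofilament subunit of ganglion cell axons, rose 7.96-fold, Pcp2, a bipolar cell protein, 9.82-fold, Thy1, a surface protein of ganglion cells, 5.89-fold, and Gad1, which makes the transmitter GABA, 5.84-fold. The 2 members that fell, Pax6 and Tfap2a, are transcription factors that lens epithelium also expresses.

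Synaptic genes followed: 38 of 40 rose, none fell, and the median was 1.54. Snap25, a membrane fusion protein of synaptic vesicles, went from 18.9, 17.5 and 15.8 to 121, 112 and 117 CPM, and Syp, synaptophysin of the vesicle membrane, from 32, 30.6 and 33.5 to 176, 199 and 180 CPM. Both groups were tight, and young control levels were higher again, at 283 to 290 and 423 to 434 CPM. Syt1, the calcium sensor of release, rose 4.25-fold. Camk2a, a calcium-dependent kinase, was not called (log2 0.56).

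Glia and pigment cells gave mixed results. Of 17 Müller glia and astrocyte genes 5 rose and 6 fell, with a median of −0.06, which turned to 7 higher, 5 lower and 0.07 with library size only. Those that rose included Rlbp1, a retinoid carrier, at 24.4, 26.9 and 20.7 against 72.9, 68.2 and 66.4 CPM, and Crym (log2 2.06). Kcnj10, a potassium channel, rose from 0.138, 0.135 and 0.542 to 1.83, 1.37 and 1.38 CPM, where 0.138 and 0.135 are under the level of 3 counts. Apoe and Clu, which lens epithelium also makes, fell 1.32-fold and 1.24-fold. Of 17 retinal pigment epithelium and melanocyte genes 4 rose and 4 fell (median −0.17), against 4 and 2 with library size only. Rgr, an opsin of pigment epithelium, rose 2.95-fold and Rpe65, the retinoid isomerase, 2.27-fold, from 1.17 to 1.96 up to 3.15 to 3.7 CPM. The melanin enzymes Dct and Tyrp1 went the other way, Dct from 169 ± 5.62 to 101 ± 5.18 CPM (SD, n = 3 each; 1.67-fold lower) and Tyrp1 1.56-fold lower.

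**Figure D3:**
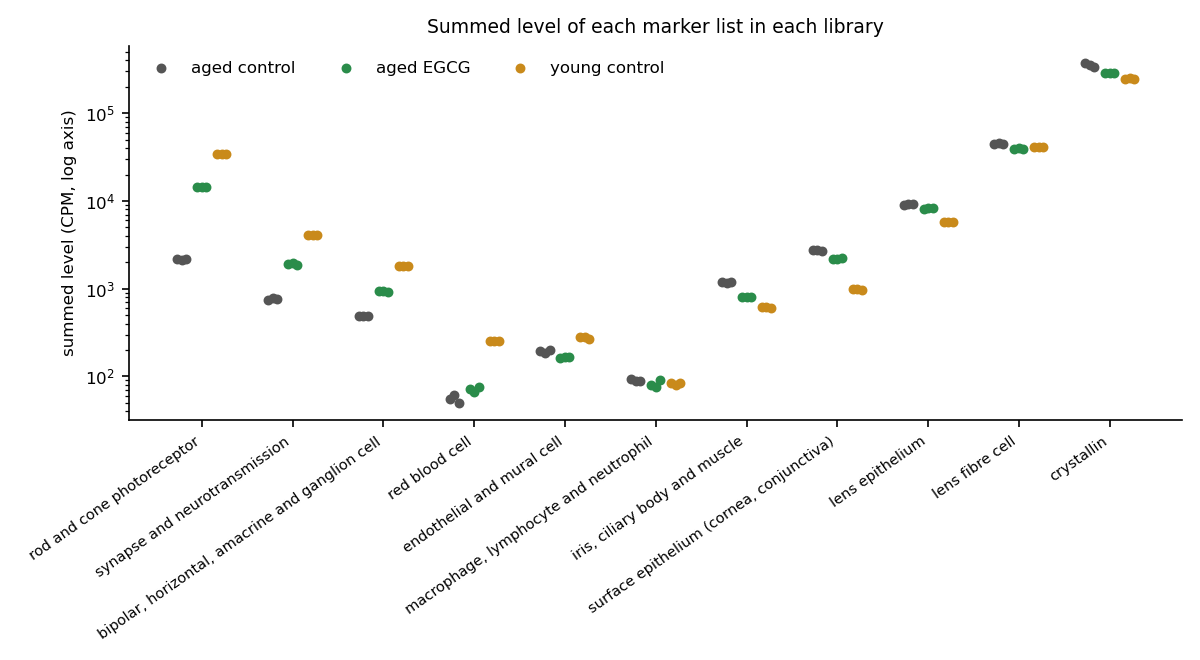
Summed level of 11 marker lists in CPM (vertical log axis) in each library, with 3 points per group for aged control, aged EGCG and young control. The photoreceptor sum lies between 14383 and 14579 CPM in EGCG libraries, above all aged control and below all young control libraries, while the lens lists differ little on this axis.

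Crystallins, the abundant soluble proteins that give the lens its refractive power, were mostly lower. Of 17 tested genes 13 were lower, none higher, with a median of −0.35 against −0.00 for all genes. With library size only 12 were lower with a median of −0.22, and on the lens fibre scale 10 were lower and 1 higher. Cryaa, the alpha A chaperone (chromosome 17, 31677807 to 31681733, plus strand), was at 132184, 130534 and 124918 CPM in aged control and 103136, 106803 and 105790 in EGCG libraries. The groups did not overlap, and the young control libraries, at 70383 to 72548 CPM, were lower still. The change was −0.30 (SE 0.0276, edgeR adjusted p = 2.63e-12). Cryab, the small heat shock protein alpha B crystallin, went from 23402, 24478 and 23244 to 17432, 17831 and 17750 CPM, 1.34-fold lower.

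Beta crystallins, which form oligomers, were among them. Crybb2 was at 114872, 104454 and 95345 against 82574, 81955 and 82555 CPM, with a wider spread among the aged controls than among EGCG libraries. Cryba1 fell 1.31-fold and Cryba2 1.24-fold. Crygs, gamma S crystallin, fell 1.15-fold, a call lost on the lens fibre scale and on both log2(FPKM) scales.

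Gamma crystallins of embryonic and young fibres were far below their young control levels in both aged groups. Crygb (chromosome 1, 65080219 to 65082288, minus strand) was at 132, 139 and 133 CPM in aged control and 87.2, 91.2 and 73.9 in EGCG libraries, a change of −0.68 (SE 0.049), while young control libraries held 13316 to 13632. Crygc fell 1.5-fold, from 200, 177 and 163 to 112, 123 and 125 CPM, beside 8520 to 8696 in young control. EGCG libraries were thus farther from young control than aged control libraries were. Cryga, Crygf and Cryge held at most 0.929 CPM in any aged library, near the level of a few counts, and were not called; Cryga was called on the lens fibre scale and without aged control 3 or EGCG 1. Gamma crystallin genes are related copies, and the labels do not state how reads shared between them were counted.

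Lens fibre genes beyond the crystallins had 16 of 29 members lower and none higher (median −0.19), but 11 lower and 5 higher with library size only. Lgsn, lengsin, a fibre protein related to glutamine synthetase, went from 6893, 7117 and 6869 to 5166, 5339 and 5291 CPM, 1.32-fold lower. Lenep, a lens protein, fell 1.29-fold, while Mip, the fibre water channel, did not pass the test (log2 −0.02) and neither did Gja3 (log2 −0.00).

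The lens epithelium list had 3 members higher and 14 lower of 31, with a median of −0.13, and 6 and 11 with library size only. Gja1, connexin 43 of the epithelium, was at 185, 214 and 215 against 148, 155 and 137 CPM, and Cdh1, E-cadherin, at 106, 115 and 115 against 83.7, 78.8 and 86.7. Neither gene overlapped between groups. Hes1, a Notch target that keeps cells undifferentiated, fell 1.67-fold, and Tfap2a fell 1.36-fold, the latter call lost on both log2(FPKM) scales. The 3 members that rose were the lactate transporter Slc16a1 (14, 14.2 and 11.8 against 25.9, 24.1 and 28.2 CPM), the glutamine transporter Slc38a3 (1.97-fold), and the transcription regulator Mab21l1 (1.16-fold). Both transporters were higher in young control, at 66 to 69.1 and 192 to 211 CPM. Retina also expresses them, and its part in these rises was not tested.

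Of 34 capsule and basement membrane genes 23 were lower, none higher and 11 not called, with a median of −0.28, and 14 were lower under library size scaling and 13 under lens fibre scaling (median −0.16 with library size only). Col4a1, a chain of type IV collagen (chromosome 8, 11198423 to 11312826, minus strand), was at 2547, 2607 and 2671 CPM in aged control and 1960, 2106 and 2152 in EGCG libraries. All 3 EGCG libraries were lower than every control, since young control held 2474 to 2510, and the change was −0.33 (SE 0.0395, edgeR adjusted p = 2.56e-09). Col18a1, the source of endostatin, went from 225, 226 and 226 to 158, 162 and 157 CPM. Pxdn, peroxidasin, which crosslinks type IV collagen, fell 1.44-fold.

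Enzymes that modify collagen chains were among the members that fell. P4ha1, a prolyl hydroxylase subunit, was at 300, 292 and 286 against 191, 203 and 209 CPM (1.46-fold lower), and Plod2, a lysyl hydroxylase, at 84.5, 85.6 and 86.8 against 53.8, 52.9 and 57.9 (1.56-fold lower). The laminin chains Lama3 (log2 −0.60), Lamb2 (−0.53) and Lamc1 (−0.47) were among the called members, and Nid1, nidogen, changed least of them (−0.13).

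**Figure D4:**
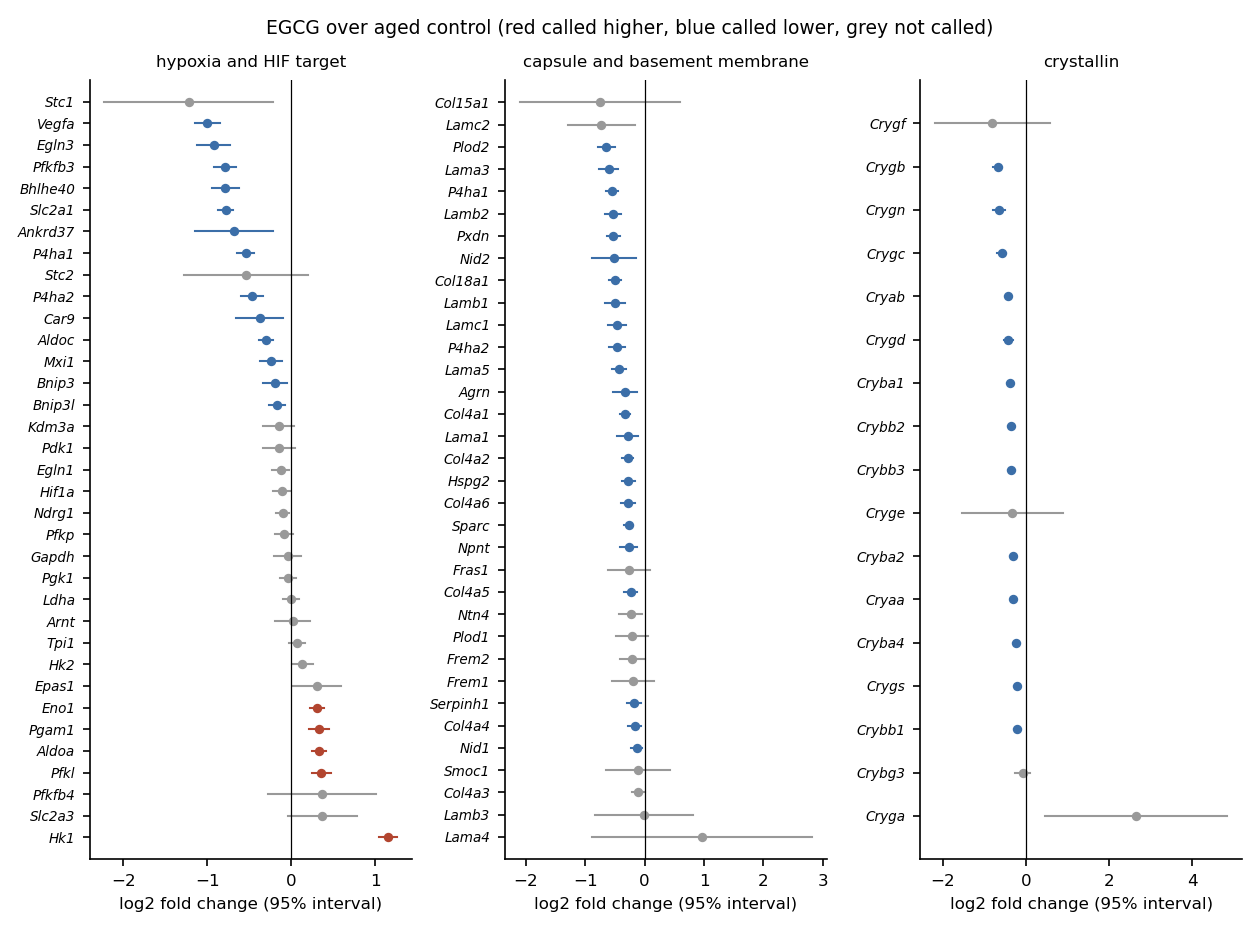
Log2 fold change of EGCG over aged control with its 95% interval for each tested hypoxia, capsule and crystallin gene, red where called higher, blue where called lower and grey where not called. Capsule genes called lower run from −0.64 to −0.13, and the wide grey intervals belong to genes near the counting floor, Cryga among them.

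Scarring and matrix genes that were called were all lower. Of 37 fibrosis and epithelial-mesenchymal transition genes 20 fell and none rose, with a median of −0.48, and 16 fell with library size only. Acta2, smooth muscle actin and the classical marker of myofibroblasts, was at 761, 717 and 741 CPM in aged control and 508, 524 and 539 in EGCG libraries, a change of −0.50 (SE 0.0447, edgeR adjusted p = 8.07e-13), beside 286 to 300 in young control. Loxl2, a collagen-crosslinking oxidase, fell 1.62-fold, Ltbp2, a microfibril protein, 1.53-fold, and Fbn1, fibrillin of the zonule, 1.58-fold. Acta2 and Fbn1 are also markers of iris and ciliary body, whose list is given below, and the zonule is made there. Fibronectin, Fn1, stood at 7.43, 6.74 and 7.28 against 3.15, 1.78 and 4.99 CPM, and Lox was at 0.0686 to 0.153 CPM in EGCG libraries, under the level of 3 counts.

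TGF-beta signalling drives that programme in lens epithelium, and the list given here holds BMP signalling genes as well. Of its 34 genes 14 were lower and none higher (median −0.22), against 9 lower with library size only (median −0.10). Bmp2, a secreted ligand, fell 2.3-fold, from 25.7, 23.5 and 25.9 to 12.4, 11.1 and 8.98 CPM, and Inhba, an activin subunit, 1.41-fold. The BMP target genes Id1 and Id3, inhibitors of differentiation, fell 1.51-fold and 1.55-fold; Id3 was at 68.6, 59.8 and 59.8 against 42.5, 37.8 and 41.2 CPM. The ligand genes Tgfb1 (log2 −0.15) and Bmp4 (log2 0.31) did not pass the test.

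YAP and TAZ are coactivators that move to the nucleus on stiff matrix and bind TEAD factors. Of 22 target genes 7 fell and 1 rose, with a median of −0.25. Under library size scaling 4 fell and 2 rose (median −0.12). Ccn2, connective tissue growth factor, was at 141, 151 and 134 CPM in aged control and 76.3, 69.9 and 64.9 in EGCG libraries, and Ccn1, its relative Cyr61, at 35.3, 36.1 and 33.5 against 18.2, 19.1 and 17.4. For Ccn1 the EGCG libraries lay below all 6 controls, with 48.8 to 50.6 CPM in young control, and for Ccn2 they overlapped young control (75.2 to 83.3 CPM). Ccn1 fell 1.92-fold (log2 −0.94, SE 0.0971, edgeR adjusted p = 5.33e-11). Ccnd1, cyclin D1, fell 1.43-fold, and the member that rose was Dlc1, which inactivates small GTPases (1.88-fold, from 4.57 ± 0.753 to 8.54 ± 1.25 CPM). The Ccn1 sequence is shown because it carries the TEAD core GGAATG (chr3:145649986-145650235, minus strand, motif in capitals as its reverse complement).
Ccn1: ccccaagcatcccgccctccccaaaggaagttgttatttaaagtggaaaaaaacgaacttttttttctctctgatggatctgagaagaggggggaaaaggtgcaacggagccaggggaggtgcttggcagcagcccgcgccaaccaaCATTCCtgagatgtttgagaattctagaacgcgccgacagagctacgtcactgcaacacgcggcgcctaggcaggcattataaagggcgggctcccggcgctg
GGAATG or its reverse complement was in 6 of 14 matched target promoters (42.9%), against 12.6% of all promoters, and in 2 of the 4 matched genes called lower, Ccn1 and Ptpn14. This list was made of known YAP and TAZ targets, so such letters are part of why genes belong to it.

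Hypoxia-inducible factor (HIF) switches cells to glycolysis and vessel growth when oxygen is low. Of 35 genes in its list 13 fell and 5 rose, with a median of −0.13, and 8 fell and 9 rose with library size only. Vegfa, the vascular growth factor, was at 75.8, 69.8 and 75.4 CPM in aged control and 35.4, 37.4 and 37.5 in EGCG libraries, 2-fold lower, and young control libraries were at 72.2 to 76. The EGCG libraries therefore stood apart from both control groups. Slc2a1, the glucose transporter GLUT1 of the lens epithelium, went from 847, 846 and 818 to 474, 491 and 496 CPM, a change of −0.78 (SE 0.044, edgeR adjusted p = 7.42e-20). Pfkfb3, which makes the activator of phosphofructokinase, went from 126, 135 and 129 to 70.1, 80 and 75.8 CPM, 1.73-fold lower. Egln3, a prolyl hydroxylase that marks HIF for destruction and is itself a HIF target, was named after its values were seen, at 62.3, 52.2 and 55.8 against 31.9, 28.7 and 29.3 CPM. Bhlhe40, a repressor, fell 1.72-fold.

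The 5 members that rose are glycolytic enzymes, although another, Aldoc, was among those that fell (log2 −0.30). Hk1, the hexokinase that neurons use, was at 77, 83.5 and 81.5 CPM in aged control, 181, 185 and 171 in EGCG and 335 to 338 in young control libraries. Eno1, enolase, rose 1.24-fold, Pfkl, phosphofructokinase, 1.28-fold, Pgam1 1.26-fold and Aldoa 1.26-fold, while Gapdh (log2 −0.04), Pgk1 (−0.03) and Ldha (−0.00) were not called. Pkm, pyruvate kinase, on no list, went from 1424, 1449 and 1339 to 1784, 1851 and 1863 CPM, among the 6 largest rises in CPM. Hif1a itself was not called (log2 −0.11).

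The 3 sequences that follow hold the HIF core ACGTG, in capitals: Slc2a1 (chr4:119108495-119108744, plus strand), Pfkfb3 (chr2:11553930-11554179, minus strand) and Egln3 (chr12:54203875-54204124, minus strand).
Slc2a1: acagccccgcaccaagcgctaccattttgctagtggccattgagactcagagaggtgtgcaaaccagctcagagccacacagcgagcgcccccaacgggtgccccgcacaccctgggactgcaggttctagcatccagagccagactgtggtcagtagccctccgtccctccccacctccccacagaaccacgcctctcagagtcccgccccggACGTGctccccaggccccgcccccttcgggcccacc
Pfkfb3: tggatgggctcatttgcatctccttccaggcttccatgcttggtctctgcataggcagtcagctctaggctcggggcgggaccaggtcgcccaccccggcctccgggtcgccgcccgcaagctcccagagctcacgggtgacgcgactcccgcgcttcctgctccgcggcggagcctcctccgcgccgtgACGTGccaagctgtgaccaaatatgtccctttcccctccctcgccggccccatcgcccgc
Egln3: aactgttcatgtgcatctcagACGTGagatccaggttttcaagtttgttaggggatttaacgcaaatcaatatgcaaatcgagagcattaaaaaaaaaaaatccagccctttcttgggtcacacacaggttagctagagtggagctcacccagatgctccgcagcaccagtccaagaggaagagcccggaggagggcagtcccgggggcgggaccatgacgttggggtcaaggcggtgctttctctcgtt
ACGTG on either strand was in 14 of 29 matched members (48.3%), against 16.6% of all promoters. Among the 11 matched members called lower it was in 8, which were Ankrd37, Bnip3, Car9, Egln3, P4ha1, P4ha2, Pfkfb3 and Slc2a1. The list was assembled from known HIF targets, so such letters are part of why genes belong to it.

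Of 19 osmolyte and polyol genes 6 were lower, none higher and the others not called (median −0.19). Under library size scaling the counts were 6 and 2 (median −0.06). Slc5a3, the cotransporter of sodium and myo-inositol, a solute that lens cells store against osmotic stress, had the smallest p of all genes that fell by 2-fold. Its levels were 82.8, 98.8 and 103 CPM in aged control, 36.6, 40.3 and 41.8 in EGCG and 35.1, 38.5 and 38.1 in young control libraries, so the EGCG and young ranges overlapped. The amino acid transporter Slc38a2 went from 346, 361 and 367 to 220, 225 and 224 CPM, 1.6-fold lower. Nfat5, the transcription factor that controls osmolyte genes, fell 1.33-fold, a call lost on both log2(FPKM) scales, and the polyol enzymes Akr1b3 (log2 −0.19) and Sord (−0.01) were not called.

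**Figure D5:**
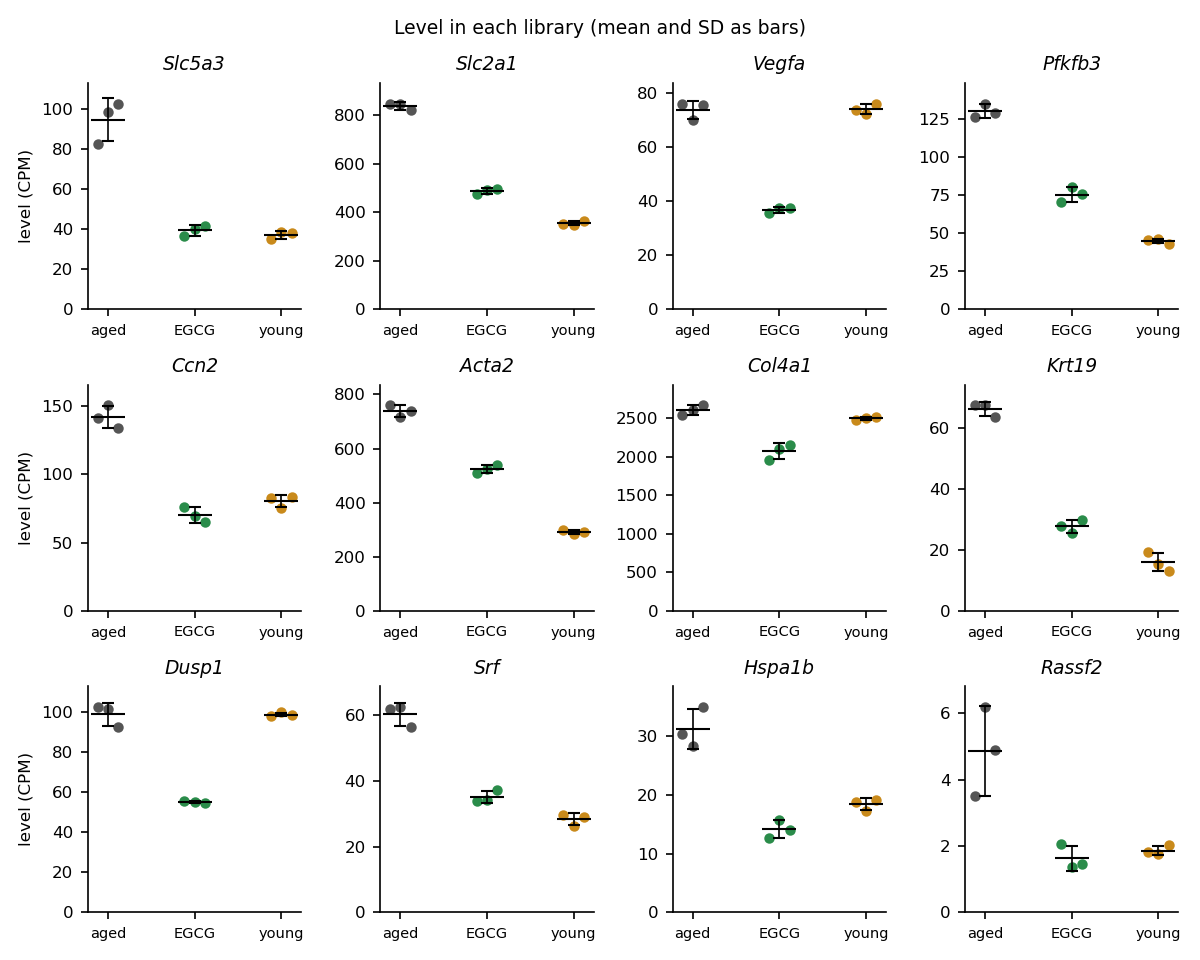
Level of 12 genes in CPM (vertical axes from 0) in each aged control, aged EGCG and young control library, with the mean as a line and the SD as bars. EGCG libraries lie below all aged control libraries in each panel, and below young control as well in the Vegfa, Dusp1, Col4a1 and Hspa1b panels.

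Immediate early genes are switched on within minutes by growth factors and stress, without new protein. Of 30 such genes 14 fell and 2 rose, with a median of −0.35 against −0.00 for all genes. Dusp1, a phosphatase that ends MAP kinase signalling, was at 102, 101 and 92.2 CPM in aged control, 55.5, 54.9 and 54.5 in EGCG and 97.8 to 99.6 in young control libraries. The EGCG libraries were below all 6 controls, and the change was −0.84 (SE 0.0654, edgeR adjusted p = 6.29e-15). Srf, serum response factor, fell 1.72-fold, from 61.8, 62.5 and 56.2 to 33.7, 34.2 and 37.1 CPM. Fosb fell 3.99-fold to 1.07 to 1.58 CPM, Maff, a small MAF protein, 2.61-fold, and Fos 1.56-fold. Egr1, a widely used marker of this response, was not called (log2 0.01), and the members that rose were Nr4a1, an orphan nuclear receptor (1.6-fold), and Klf6 (1.17-fold), whose call was lost on leaving out any of 4 libraries, aged control 1 or 2 or EGCG 2 or 3 (1 at a time).

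The Srf and Dusp1 sequences are shown for the CArG box, which serum response factor itself binds, and the cAMP response element TGACGTCA, with matches in capitals. Srf lies at chr17:46556163-46556412, minus strand and Dusp1 at chr17:26508473-26508722, minus strand.
Srf: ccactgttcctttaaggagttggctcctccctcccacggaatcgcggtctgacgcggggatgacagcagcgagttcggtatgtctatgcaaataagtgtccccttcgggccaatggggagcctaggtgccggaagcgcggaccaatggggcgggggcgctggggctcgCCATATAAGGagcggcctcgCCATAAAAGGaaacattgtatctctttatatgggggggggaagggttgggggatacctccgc
Dusp1: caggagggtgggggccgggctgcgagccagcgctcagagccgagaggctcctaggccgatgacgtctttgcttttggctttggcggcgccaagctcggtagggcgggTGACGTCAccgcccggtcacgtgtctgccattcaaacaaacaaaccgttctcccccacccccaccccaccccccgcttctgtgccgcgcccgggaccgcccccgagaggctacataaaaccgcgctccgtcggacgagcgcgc
The CArG box was in 3 of 25 matched members (12%) and 1.40% of all promoters, and TGACGTCA in 2 of 25 (8%) and 1.62%. Of 13 matched members called lower, Srf and Zfp36 held the first and Btg2 and Dusp1 the second.

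Of 37 NF-kB and inflammatory genes 10 fell and 1 rose, with a median of −0.34, against 9 lower, 2 higher and −0.21 with library size only. Tnfrsf21, death receptor 6, was at 25.5, 28.5 and 30.2 against 12.4, 12.8 and 11.6 CPM, below all 6 controls, and Tlr2, a receptor for bacterial lipoproteins, at 15.7, 15 and 15.8 against 6.74, 7.41 and 4.68. Serpina3n, an acute-phase protease inhibitor, fell 1.83-fold and Il33, an alarmin cytokine, 1.78-fold. The member that rose was Tnfaip3, the enzyme A20 that restrains NF-kB, from 15.7, 16.7 and 16.3 to 27.4, 31.1 and 31.1 CPM, beside 116 to 128 in young control. Subunits of NF-kB were not called (Nfkb1 log2 −0.08, Rela −0.20). Among 32 interferon, complement and MHC class I genes 6 fell and none rose, with a median of −0.10, against 6 lower, 2 higher and 0.03 with library size only. Ifit3, an interferon-induced protein, fell 1.94-fold, Serping1, the C1 inhibitor, 1.43-fold, and C1s1, a complement protease, 1.8-fold.

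Stress protein genes moved in both directions. Of 32 heat shock genes 12 fell and 3 rose (median −0.11), a split of 5 and 5 with library size only. Hspa1b, an inducible HSP70, was at 30.4, 28.4 and 35 against 12.7, 15.8 and 14 CPM (2.2-fold lower), while Hspa1a, a gene so alike that reads may be split between them, fell 1.43-fold, which makes both values uncertain. Hspb1, HSP27, fell 1.4-fold and Hsph1, HSP110, 1.44-fold, while Hspb6, a small heat shock protein of muscle and brain, rose 2.62-fold and Hsp90aa1 1.2-fold. Hspa4l rose 1.16-fold, a call lost when only the 6 aged libraries were fitted and without aged control 1 or any 1 EGCG library. The heat shock element TTCNNGAA was in 3 of 24 matched promoters (12.5%), against 7.10% of all.

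The unfolded protein and integrated stress response list had 4 higher and 7 lower of 37, with a median of −0.07. The balance turned with library size only, to 8 higher and 3 lower (median 0.06). Nupr1, a stress-induced chromatin protein, went from 1197, 1053 and 1022 to 784, 757 and 828 CPM, and Phgdh, the first enzyme of serine synthesis, fell 1.23-fold. Asns, asparagine synthetase, rose 2.83-fold to 7.33 ± 1.59 CPM. The other 3 that rose were Trib3, Sesn2 and Atf6, with calls lost without aged control 1 (Trib3, Atf6), aged control 2 (Sesn2, Atf6), EGCG 2 (Sesn2, Atf6) or EGCG 3 (Atf6).

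Catechins are known as antioxidants, and NRF2 is the factor that induces antioxidant enzymes. Of 46 NRF2 and antioxidant genes 18 fell and 3 rose, with a median of −0.13, and 11 fell and 8 rose with library size only. Gpx3, the secreted glutathione peroxidase, was at 547, 500 and 504 CPM in aged control, 314, 327 and 342 in EGCG and 163 to 167 in young control libraries. Sod3, the extracellular superoxide dismutase, went from 63.8, 60.9 and 53.3 to 27.9, 35.2 and 36.4 CPM, 1.79-fold lower. Slc7a11, the cystine importer that feeds glutathione synthesis, fell 1.45-fold, Prdx6, a peroxiredoxin, 1.34-fold, and Gstm1, a glutathione transferase, 1.32-fold. The central NRF2 targets Nqo1 (log2 −0.37), Gclc (0.01), Gclm (0.06) and Txnrd1 (0.05) were not called, and Hmox1, haem oxygenase, was called lower (log2 −0.27). Calls for the 3 that rose, Gpx4, Me1 and Srxn1, depended on single libraries: Gpx4 was lost without aged control 3, EGCG 1 or EGCG 2, Srxn1 without aged control 1, aged control 2, EGCG 2 or EGCG 3, and Me1 without any 1 library except EGCG 2.

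Catechin and xenobiotic metabolism had 2 higher and 5 lower of 21 (median −0.15), against 3 and 3 with library size only. The 2 that rose were the aryl hydrocarbon receptor Ahr, from 0.894, 0.809 and 0.155 to 2.93, 2.19 and 1.07 CPM, and its repressor Ahrr, from 0.481, 0.135 and 0.852 to 2.27, 3.36 and 2.38 CPM. Both were low in aged tissue and at 13 to 15.8 and 8.29 to 12.2 CPM in young control. The aged control values 0.155 (Ahr) and 0.135 (Ahrr) are under the level of 3 counts. Aldh1a1, a retinaldehyde dehydrogenase, fell 1.19-fold, a call lost on the lens fibre scale and both log2(FPKM) scales.

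Among senescence and p53 target genes 4 rose and 8 fell of 35, with a median of −0.13, and 10 rose and 4 fell with library size only. Cdkn1a, the cell cycle inhibitor p21, was at 77.8, 90.9 and 87.4 CPM in aged control and 91.9, 91.8 and 86.3 in EGCG libraries, which overlapped, while young control held 1.28 to 1.75. Its change was 0.08 (95% interval −0.069 to 0.224), and it was called higher on the library size and lens fibre scales. Igfbp7 and Igfbp5, secreted binding proteins of senescent cells, fell 1.34-fold and 1.54-fold, and Plk2, a p53-induced kinase, rose 2.52-fold, from 2.96, 1.96 and 3.02 to 6.52, 6.79 and 6.68 CPM.

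Of 34 cell cycle genes 7 fell with none higher (median −0.19), and 4 were lower with library size only (median −0.06). Mki67, the proliferation marker, was at 4.4, 4.58 and 4.72 against 1.76, 2.13 and 1.3 CPM, and Top2a, topoisomerase, at 6.47, 3.84 and 6.12 against 3.51, 2.47 and 2.38. Ccnd2, cyclin D2, fell 1.54-fold, and Pcna (log2 0.12) and Cdk1 (0.01) were not called.

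In the pathway of the series title, Rassf2, a Ras-association protein and partner of MST kinases, is a protein-coding gene at chromosome 2, 131989415 to 132030258, on the minus strand. It was at 3.51, 6.2 and 4.88 CPM in aged control and 2.05, 1.37 and 1.46 in EGCG libraries, beside 1.75 to 2.02 in young control. The aged groups did not overlap, while the EGCG and young ranges did. The change of EGCG over aged control was −1.58 (95% interval −2.27 to −0.883). On log2(FPKM + 1), which understates low genes, it was −0.48. Akt1 and Akt2 differed by 0.07 and −0.00 on the log2 scale, and neither was called; Akt1 was called higher on the library size, lens fibre and both log2(FPKM) scales. Over 44 genes of the pathway 8 fell and 1 rose with a median of −0.03, which became 3 fell and 8 rose with library size only. The relatives Rassf3 (log2 −0.14), Rassf4 (0.13) and Rassf5 (0.26) and the MST kinases Stk3 (−0.03) and Stk4 (0.14) were not called, and Rassf1 was (−0.35). The transcription factors Foxo1 (−0.33) and Foxo3 (−0.18), AKT substrates, fell. All are transcript levels, and AKT activity was not measured.

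Among housekeeping lists, cytosolic ribosomal protein genes had 72 of 81 members lower and none higher, by a small amount (median −0.23). This count is tied to the scale: 29 were lower with library size only, 18 on the lens fibre scale and 43 with each library's trend on gene length removed. Rpl21 (log2 −0.38) and Rpl27a (−0.37) had the smallest p. Reads from their numerous pseudogenes may be counted with them, so single values are uncertain. Oxidative phosphorylation genes had 4 higher and 15 lower of 75 (median −0.07), against 13 and 2 with library size only. Proteasome genes had 2 of 36 lower, Psma4 and Psme1, and none higher (median −0.06), but with library size only 5 were higher and none lower. Cholesterol synthesis genes had 3 higher and 2 lower of 30 (median 0.01), against 6 higher and none lower with library size only.

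Clock genes oscillate over the day, and the labels do not state the time of sampling. Of 22 clock genes 9 fell and 2 rose (median −0.18), against 5 lower and 4 higher with library size only. Per1 was at 38, 42.9 and 37.1 against 25.6, 23.4 and 28.5 CPM, and Per2 at 22.6, 23.3 and 28.7 against 15.2, 16.8 and 16.2, both period repressors. Rorb, a nuclear receptor of retinal neurons, rose 3.94-fold, and Arntl, the BMAL1 activator, rose 1.24-fold, a call lost under most alternatives, among them leaving out aged control 1 or 2 or EGCG 2 or 3. Autophagy and lysosome genes had 2 higher and 9 lower of 41 (median −0.03), a split that turned to 7 higher and 2 lower with library size only (median 0.10). Apoptosis regulators had 3 higher and 2 lower of 23 (median −0.00), against 3 and 1 with library size only. Ctsl and Ctsd, lysosomal proteases (log2 −0.33 and −0.22), and Mcl1, a survival protein (−0.50), were among the lower ones.

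Markers of tissues next to the lens also differed. Of 17 iris, ciliary body and muscle genes 11 fell and 1 rose, with a median of −0.62, and the list's summed level was 1170 to 1196 CPM in aged control, 793 to 813 in EGCG and 595 to 614 in young control libraries. Changes ran from −1.05 to 3.56 on the log2 scale, and the member that rose did so by at least 2-fold. Optc, opticin of the ciliary body, was at 166, 185 and 185 against 107, 89.7 and 97.4 CPM, and Col9a1 at 40.2, 43.3 and 37.1 against 24.1, 25.6 and 25.2. Some muscle genes had too few counts to test. Summed over 3 libraries per group, Myh4 had 1 count in aged control and 37 in EGCG, and Tnnt3 5 and 26. Tnnc2 had 2 and 16, Myh1 0 and 11, and Myl1 2 and 10, while Cnn1 had 1 and 0. The part of this list's difference in the fibrosis, capsule and TGF-beta counts above was not tested. Of 15 stromal fibroblast and keratocyte genes 6 fell and 1, Thy1, rose (median −0.49), and 3 were lower with library size only. Those lower included Fbln1, fibulin 1 (1.53-fold lower), and Ptgds, prostaglandin D synthase (1.4-fold lower).

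The surface epithelium list had 7 of 21 genes lower and none higher (median −0.41), against 5 lower and 2 higher with library size only. Krt19, a keratin of simple epithelia, was at 67.5, 67.4 and 63.7 CPM in aged control, 27.8, 25.4 and 29.8 in EGCG and 13.2 to 19.2 in young control libraries, 2.39-fold lower. Aldh3a1, abundant in cornea, fell 1.33-fold, from 1055, 1097 and 1051 to 814, 804 and 796 CPM, and Krt15 fell 1.53-fold. The corneal and basal keratins Krt12 and Krt5 were at or under 1.51 CPM in every aged library.

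Blood vessels are absent from the adult lens, and vascular markers were low. Of 23 endothelial and mural cell genes 4 fell and 1 rose (median −0.39), and their sum was 186 to 200.4 CPM in aged control, 160 to 167 in EGCG and 270 to 283 in young control libraries. Vwf, von Willebrand factor, was at 8.74, 7.28 and 5.65 against 0.659, 1.85 and 1.15 CPM, 5.85-fold lower, and Tie1 at 1.72, 2.36 and 1.47 against 0.0732, 1.1 and 0.0767. The Tie1 values 0.0732 and 0.0767 are under the level of 3 counts. Kdr, a VEGF receptor, rose 1.44-fold in overlapping groups (7.43, 8.09 and 11.4 against 10.8, 15.6 and 11.9 CPM), a call lost on log2(FPKM + 1) and without aged control 1 or EGCG 2, and Cdh5, VE-cadherin, was not called. Of 6 red blood cell genes 4, all haemoglobin genes, rose (median 1.57), Hbb-bs from 2.34, 2.09 and 3.49 to 8.71, 9.87 and 7.21 CPM, beside 102 to 103 in young control; the haemoglobin copies are near-identical. Of 21 macrophage, lymphocyte and neutrophil genes 1 fell, Adgre1 (median −0.10; none was called with library size only), and the list's sum overlapped between groups, at 87.5 to 92.7 and 76.5 to 90.2 CPM. Of 7 Schwann cell and oligodendrocyte genes 2 rose and 1 fell (median 0.03).

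In 488 called genes the EGCG libraries lay outside the range of both control groups, 139 (1.01%) above and 349 (2.55%) below all 6 control libraries. The balance turned with the scale, to 428 above and 257 below with library size only, and 485 and 237 on the lens fibre scale. Besides Vegfa, Dusp1, Tnfrsf21, Crygb, Ccn1 and Dct, a lower gene among those with the smallest p was Reln, reelin, a secreted matrix protein. It was at 135, 135 and 144 CPM in aged control, 82.2, 81.1 and 83.4 in EGCG and 117 to 124 in young control libraries. The control groups lay closer to each other than to EGCG.

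Called genes above all 6 control libraries numbered 139, and 147 when only genes with at least 5 CPM in 3 libraries were tested. The genes named below are a selection of them. Klc3, a kinesin light chain, was at 37.2, 27.9 and 35 CPM in aged control, 47.5, 55.5 and 52.8 in EGCG and 40.1 to 44.2 in young control libraries, and Nr4a1 at 16.6, 13.3 and 12.7, 24.8, 22.7 and 21.1, and 13.8 to 16. Both kept their calls under every alternative. Taco1, a mitochondrial translation activator, rose 1.85-fold over aged control and Mrps2, a mitochondrial ribosomal protein, 1.56-fold. Taco1 was at 6.93 to 8.98 CPM in EGCG and 5.49 to 6.79 in young control libraries. Mrps2 was at 12.888 to 14.5 CPM in EGCG and 8.98 to 12.867 in young control libraries. Neither was called against young control (edgeR adjusted p = 0.139 for Taco1 and 0.0582 for Mrps2). Tg, Tmem107, Clrn1 and Enho, the other 4 named, rose 1.5-fold to 1.73-fold over aged control. Each lost its call on leaving out 1 library (EGCG 1 for Tg and Enho, aged control 3 for Tmem107, EGCG 2 for Clrn1). Tmem107 was also not called against young control (edgeR adjusted p = 0.170).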

How the data were processed

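RNA was sequenced from mouse lens capsule, with libraries from the SMARTER mRNA-Seq kit per the labels' protocols and build GRCm38/mm10 per the submitters' processing notes; aligner, counter, annotation and strand setting were not given in sources used here. The authors deposited raw counts per gene and FPKM values (counts scaled by gene length and depth) for 9 libraries. Counts were tested with edgeR 4.0.16 (R 4.3.3), the quasi-likelihood test on all 9 libraries with TMM scaling, after filterByExpr kept 13711 of 17527 genes, with Benjamini-Hochberg adjustment at 0.05. FPKM values entered only limma 3.58.1 alternatives, on log2(FPKM + 1) and log2(FPKM + 0.1); DESeq2 1.42.0 was a further alternative. On simulated data the test recovered 74.5% of 98 genes changed 1.5-fold and 78% of 100 changed 2-fold, with 4.43% of calls false. Far fewer genes changed in that simulation than were called here. Positions are from GENCODE M21. Members and gene lists were chosen with earlier results of these data known. Genes were named by rule: Rassf2 and the Akt genes; the 10 smallest p per direction at 2-fold or more; the 8 per direction outside all 6 control libraries; the 6 largest CPM differences per direction; and up to 5 called members per direction of each list. Other named genes were chosen after their values were seen. Some genes that the rule names are not reported here.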

Additional observations from a re-analysis of the deposited data

How the results depend on the processing

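With library size only, 3086 genes were higher and 611 lower, 73 lower by 2-fold, 428 above all 6 controls, and 14 capsule and 29 ribosomal protein genes were lower. On the lens fibre scale these were 3224, 548, 71, 485, 13 and 18. With at least 5 CPM in 3 libraries, 41 genes were lower by 2-fold, since fewer genes were tested. On log2(FPKM + 1), 507 genes were lower, 365 changed by 2-fold (360 higher, 5 lower), 390 lay above and 206 below all 6 controls, and 13 capsule and 14 ribosomal protein genes were lower. On log2(FPKM + 0.1), 540 were lower, 59 by 2-fold, 393 lay above and 228 below, and 13 capsule and 15 ribosomal protein genes were lower. With the gene length trend removed, 43 ribosomal protein genes were lower. The cause was not tested. Leaving out 1 library at a time gave 2803 to 3247 called genes, 1673 to 1850 higher and 1130 to 1397 lower, 1050 to 1120 by 2-fold (958 to 1005 higher, 92 to 115 lower), 110 to 168 above and 319 to 387 below all controls. It gave 19 to 23 capsule, 13 crystallin, 55 to 77 ribosomal protein, 17 to 20 fibrosis, 13 to 14 immediate early and 9 to 12 inflammatory genes lower, 49 to 50 photoreceptor and 35 to 38 synapse genes higher, and a photoreceptor share ratio of 7.26 to 7.49; a share does not depend on scaling, filter or test.

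Signs turned for genes near 0 change and for Cryge, which was near the level of a few counts. Among the named genes that were called, 1 reversed its sign under an alternative. Akt2 was 0.12 with library size only, 0.14 on the lens fibre scale, 0.11 on log2(FPKM + 1), 0.12 on log2(FPKM + 0.1), and ran from −0.0478 to 0.0256 on leaving out 1 library, above 0 without aged control 3 (0.00585), EGCG 1 (0.0135) or EGCG 3. Insig1 was 0.0111 on the lens fibre scale. Cryge ran from −1.23 to 0.71 on leaving out 1 library, highest without aged control 3 and 0.0757 without EGCG 2. Crybg3 was 0.0504 with library size only, 0.0637 on the lens fibre scale, 0.0450 on log2(FPKM + 1) and 0.0553 on log2(FPKM + 0.1), and ran from −0.141 to 0.0173 on leaving out 1 library, above 0 without aged control 2. Of 240 named genes called, 169 kept call and sign under every alternative. A fit with the replicate number as a block called 3338 genes (1905 higher, 1433 lower; 1105 by 2-fold). Same-numbered aged libraries deviated together only weakly (r = 0.073, 0.024 and 0.056 across 6978 genes, which are not independent), so they were taken to share only a number; aged control 2 correlated best with EGCG 1.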
